A study of Homo sapiens with 6 samples.

Results

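Leukocyte immunoglobulin-like receptors (LILR) and the related receptor LAIR1 are surface proteins of the immunoglobulin superfamily. The genes described here are 9 members chosen by symbol: LILRA1, LILRA2, LILRA5, LILRA6, LILRB1, LILRB2, LILRB3, LILRB4 and LAIR1. All 9 were found among the 33981 genes of the count table, and all 9 were among the 19182 genes with enough counts to be tested. They were measured by bulk mRNA sequencing of THP-1, a human monocytic line established from acute myeloid leukemia (AML). The 3 control samples carried a scrambled shRNA and the 3 knockdown samples carried an shRNA against NFIC, a transcription factor of the nuclear factor I family. Cells of both groups were infected with vectors that express GFP, sorted for GFP and sequenced 4 days after infection. The methods of the study name GFP alone as the control vector, while its results and a figure legend name a scrambled control. The sample labels name a scrambled shRNA, and the labels are followed here. The comparison rests on 1 cell line and on the shRNA called sh494, and differences between separate NFIC shRNAs were not analysed here.

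LILR and LAIR1 proteins form an inhibitory and an activating class. The inhibitory receptors (LILRB1 to LILRB4 and LAIR1) carry immunoreceptor tyrosine-based inhibitory motifs (ITIMs) in their cytoplasmic tails, and the phosphorylated motifs recruit phosphatases such as SHP-1 and SHP-2. Most activating receptors (the LILRA group) have a short tail and pass their signal through the FcR gamma chain, whose activation motifs (ITAMs) are read by SYK. Monocytes and macrophages are known to express many of these receptors, and LILRB4 is known as a marker of monocytic AML.

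The class difference could be read from the coding sequences. In the canonical transcripts of GENCODE release 44 (GRCh38), the stretch after the hydrophobic membrane segment coded for 163 residues in LILRB1, 110 in LILRB2, 161 in LILRB3, 164 in LILRB4 and 95 in LAIR1. The same stretch coded for 4 residues in LILRA1 and for 10 in each of LILRA2, LILRA5 and LILRA6. A strict ITIM pattern was searched, namely isoleucine, leucine, valine or serine, any residue, tyrosine, any pair of residues, and isoleucine, leucine or valine. It was found 3 times in the tails of LILRB1, LILRB3 and LILRB4, 2 times in LILRB2 and LAIR1, and not in the 4 activating members. Tyrosine motifs of other letters were not counted. The bases below code for the motif nearest to the carboxyl end, whose tyrosine lies 6 residues before the last one in each inhibitory member. They are shown because this motif is what separates the classes, and capitals mark the tyrosine codon.
LILRB1: agcatcTACgccactctg
LILRB2: agcatcTACgccaccctg
LILRB3: agcatcTACgccactctg
LILRB4: agtgtcTATgccactctg
LAIR1: atcacgTATgcagccgtt

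Because members resemble each other, reads from one gene can also match another. The coding sequences of LILRA6 and LILRB3 were 94.4% identical over 1426 aligned bases, those of LILRA1 and LILRA2 90.6% over 1434, and those of LILRB1 and LILRB2 90.6% over 1794. Of all 100-base stretches of the LILRA6 transcript, 14.3% were also found, letter for letter, in a transcript of another gene, and the share was 12.2% for LILRB3. It was 2.75% for LILRB1 and 3.18% for LILRB2. It was highest for LILRA2, at 17.1%, all of it shared with a noncoding RNA gene that overlaps LILRA2 and not with another receptor. No such stretch was found for LILRA1, LILRA5, LILRB4 or LAIR1. With 150-base stretches the share was 5.74% for LILRA6 and 5.17% for LILRB3. With LILRA6 alone, LILRB3 shared 9.69% of its 100-base and 3.86% of its 150-base stretches. The pair below covers coding bases 901 to 1050 of LILRA6 and LILRB3. It is shown because it held the most differences among the aligned 150-base stretches searched, and it still holds long identical runs. Capitals mark the 9 bases at which the genes differ.
LILRA6: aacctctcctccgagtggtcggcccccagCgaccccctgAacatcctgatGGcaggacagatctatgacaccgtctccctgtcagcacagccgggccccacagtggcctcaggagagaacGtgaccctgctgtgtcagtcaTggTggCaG
LILRB3: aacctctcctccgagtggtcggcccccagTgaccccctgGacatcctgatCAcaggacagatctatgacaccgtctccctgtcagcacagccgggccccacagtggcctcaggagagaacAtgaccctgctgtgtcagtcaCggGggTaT

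Total counts were between 20369543 and 24809720 per sample, so that 3 counts, taken as the detection floor, correspond to between 0.122 and 0.145 CPM, the counts scaled to library size. NFIC itself was counted 911, 1019 and 904 times in the controls and 399, 518 and 493 times after knockdown. This was 50.2% of the scrambled level (log2 fold change -0.99 ± 0.072 SE, edgeR adjusted p = 3.73e-09). Replicate libraries differed from each other beyond counting noise in every pair (chi-square per degree of freedom 1.99 to 7.99). Of the monocyte and macrophage markers, 17 of 22 had enough counts to be tested, of which 7 were higher and 5 lower, and their summed CPM was between 3063 and 3154 in the scrambled and between 4213 and 4538 in the NFIC shRNA samples. S100A9 alone went from 531 to 1650 CPM and gave most of that difference. The markers of other cell types, 16 genes, had 7 tested, of which 1 was higher and 4 lower. Called were 70.6% of the tested monocyte and macrophage markers and 71.4% of the others, against 59.9% of all genes tested. Summed CPM of the markers of other cell types was between 171.3 and 192.8 in the scrambled and between 243.8 and 272.6 in the NFIC shRNA samples. Most of it was PECAM1 (158 and 246 CPM), which myeloid cells also express. The T cell markers CD3E and CD2, the B cell marker MS4A1 and the platelet marker PPBP were not among the genes of the table, and CD3D and HBB had 0 counts in every scrambled sample. Their part in the results below was not tested. In bulk samples, fewer cells that express a gene and less RNA per cell cannot be told apart.

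NFIC knockdown was followed by higher mRNA of 5 of the 9 members and lower mRNA of 1. LILRA2, LILRA6 and LILRB3 rose between 2.72-fold and 3.39-fold, LILRB1 and LILRB2 rose less, and LAIR1 fell to 79.0% of its scrambled level. LILRB4, LILRA1 and LILRA5 did not pass the test. The background of these counts was high. Of all genes tested, 59.9% passed the edgeR test, 29.6% as higher and 30.3% as lower, so 6 of 9 called members is near the share of all genes. A rise above 1 on the log2 scale was less common, at 3.36% of all genes tested, and 3 of the 9 members had one. Among these were LILRA6 and LILRB3, which share identical stretches and are uncertain as separate values. The members were also chosen with earlier results of these data known, so these shares are description only. The median log2 fold change was 0.46 over the 5 inhibitory members and 0.72 over the 4 activating ones, and -0.01 over all genes tested.

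**Figure D1:**
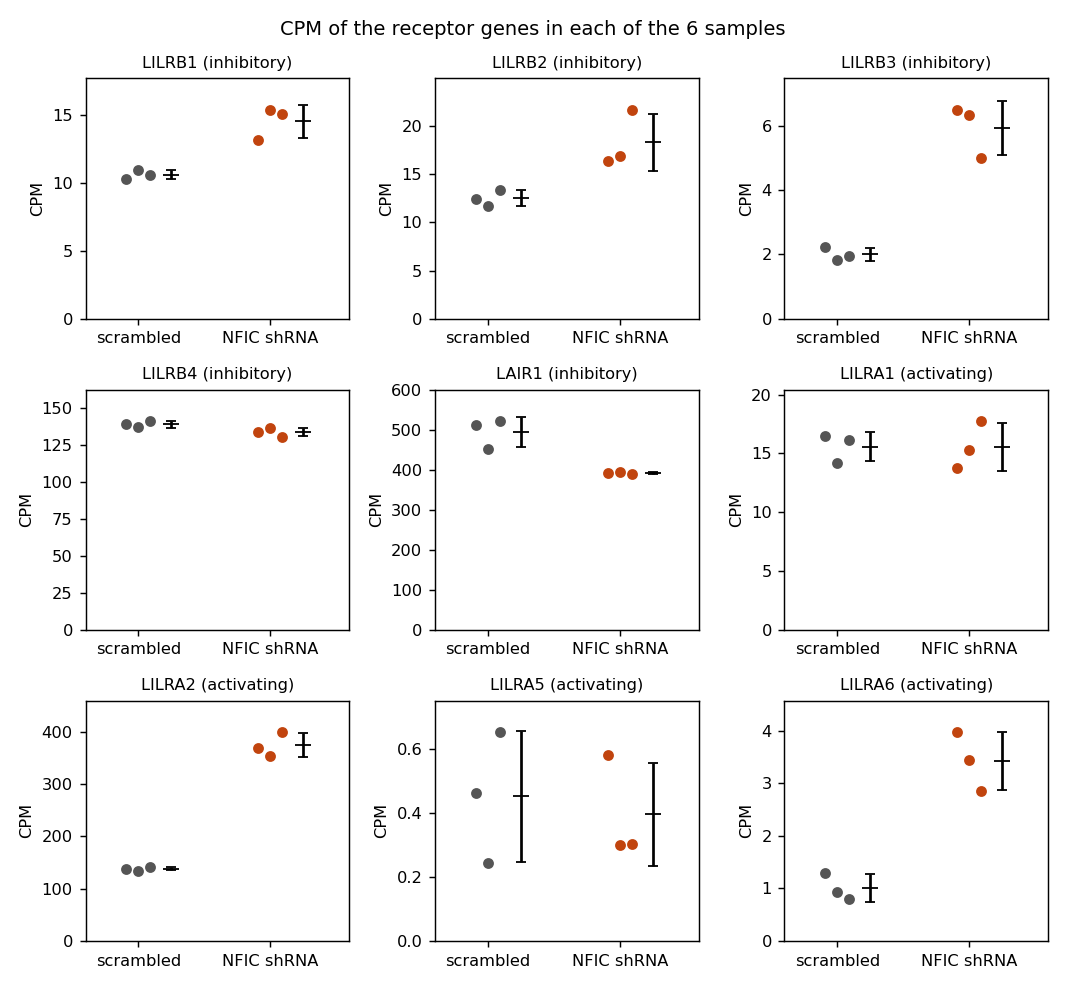
CPM of each receptor gene (vertical axis, from 0, a separate scale for each gene) in the 3 scrambled and the 3 NFIC shRNA samples, with 1 point per sample and the mean ± SD beside the points. The NFIC shRNA points lie above all scrambled points for LILRB1, LILRB2, LILRB3, LILRA2 and LILRA6, below them for LAIR1 and, by a narrow gap, LILRB4, and among them for LILRA1 and LILRA5.

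Among the activating receptors, LILRA2 carried nearly all of the mRNA. LILRA2, which signals through the FcR gamma chain and is known to recognise immunoglobulins cut by microbial proteases, had 2987, 3318 and 3012 counts in the controls and 7620, 8223 and 9229 after knockdown. All 3 knockdown samples were far above all controls. Its CPM went from 138 ± 2.94 to 375 ± 23.2 (SD, n = 3 each). The log2 fold change was 1.44 ± 0.054 SE, a 2.72-fold rise with a 95% interval of 2.51 to 2.94 (edgeR adjusted p = 1.62e-12). In size of change, counted without sign, it ranked 900 among the 19182 genes tested.

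LILRA6, an activating receptor whose extracellular part closely resembles that of LILRB3, was a gene of low counts. It had 28, 23 and 17 counts in the controls and 82, 80 and 66 after knockdown, so the groups were well apart. The log2 fold change was 1.76 ± 0.23 SE, or 3.39-fold with a 95% interval of 2.42 to 4.73 (edgeR adjusted p = 3.98e-06).

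LILRA1, a receptor of the same class encoded next to LILRA2, had 356, 349 and 345 counts in the controls and 283, 354 and 410 after knockdown. The groups overlapped, and the spread was wider in the knockdown samples. The log2 fold change was 0.0047 with a 95% interval of -0.21 to 0.22 (edgeR adjusted p = 0.971). Per 100 counts of LILRA1 the scrambled samples held 839, 951 and 873 counts of LILRA2 and the NFIC shRNA samples 2690, 2320 and 2250. The ratio of the neighbouring genes therefore separated the groups without overlap.

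LILRA5 was close to the detection floor, with 10, 6 and 14 counts in the scrambled and 12, 7 and 7 in the NFIC shRNA samples. Its groups overlapped (log2 fold change -0.19, 95% interval -1.17 to 0.79, edgeR adjusted p = 0.742), and its interval includes changes of the size seen for LILRB1 in either direction.

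Among the inhibitory receptors, LAIR1, a receptor for collagens, had the most mRNA and was the member that fell. It had 11084, 11150 and 11199 counts in the scrambled and 8080, 9156 and 8977 in the NFIC shRNA samples. Scaled to library size this was 512, 453 and 523 CPM against 392, 395 and 389 CPM, and the lowest control was above the highest knockdown sample. The log2 fold change was -0.34 ± 0.055 SE (edgeR adjusted p = 4.31e-05).

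LILRB4, an inhibitory receptor known to bind APOE on monocytic AML cells, had 3009, 3373 and 3030 counts in the controls and 2758, 3166 and 3021 after knockdown. The corresponding CPM were 139, 137 and 142 against 134, 136 and 131, which do not overlap but differ by little. The log2 fold change was -0.06 with a 95% interval of -0.16 to 0.044 and did not pass the test (edgeR adjusted p = 0.315). With upper-quartile scaling in place of TMM it was -0.11 and passed (adjusted p = 0.0488), so its side of the threshold depended on the scaling.

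LILRB3, an inhibitory receptor of myeloid cells, moved together with its near copy LILRA6. It had 48, 45 and 42 counts in the scrambled and 134, 147 and 115 in the NFIC shRNA samples, again well apart. The log2 fold change was 1.57 ± 0.17 SE, or 2.96-fold, with a 95% interval of 1.21 to 1.93 on the log2 scale (edgeR adjusted p = 4.65e-07). How the reads that match both genes were assigned was not given in the sources used here, so the changes of LILRA6 and LILRB3 are uncertain as separate values. Their summed CPM went from 3.51, 2.76 and 2.76 to 10.5, 9.78 and 7.84. Per 100 counts of LILRB3 there were 58.3, 51.1 and 40.5 counts of LILRA6 in the scrambled and 61.2, 54.4 and 57.4 in the NFIC shRNA samples, and these ranges overlapped.

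LILRB1 and LILRB2, inhibitory receptors for HLA class I molecules, showed the smaller rises. LILRB1 had 223, 270 and 226 counts in the scrambled and 271, 357 and 348 in the NFIC shRNA samples. Its log2 fold change was 0.46 ± 0.097 SE, or 1.37-fold (95% interval 1.19 to 1.58, edgeR adjusted p = 6.50e-04). After scaling, every knockdown sample (13.1, 15.4 and 15.1 CPM) was above every control (10.3, 11.0 and 10.6 CPM).

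LILRB2 had 269, 289 and 287 counts in the scrambled and 337, 393 and 501 in the NFIC shRNA samples, and the groups did not overlap. Its log2 fold change was 0.55 ± 0.11 SE, or 1.47-fold (95% interval 1.25 to 1.72, edgeR adjusted p = 3.37e-04). NFIC shRNA replicate 3 was higher than the other knockdown samples, and without it the log2 fold change was 0.42. In all, the CPM of 7 of the 9 members did not overlap between the groups, against 65.2% of all genes tested.

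**Figure D2:**
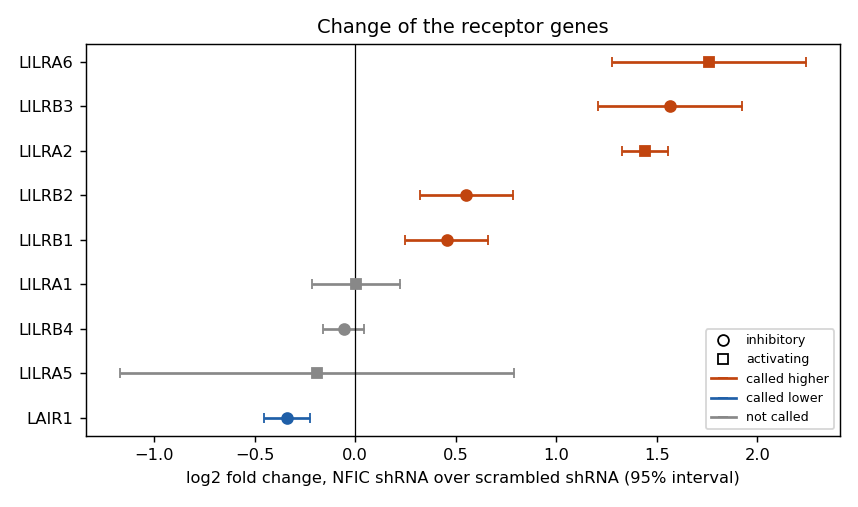
Log2 fold change of NFIC shRNA over scrambled shRNA for each receptor gene with its 95% interval from edgeR, with circles for inhibitory and squares for activating members. LILRA6, LILRB3 and LILRA2 lie above 1, LILRB2 and LILRB1 between 0 and 1, LAIR1 below 0, and the intervals of LILRA1, LILRB4 and LILRA5 cross 0.

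Levels can be compared between genes only per length, for which the deposited FPKM values were used. In the scrambled samples LAIR1 was highest (60.7 ± 4.64 FPKM), followed by LILRA2 (25.5 ± 0.579), LILRB4 (21.7 ± 0.387), LILRA1 (3.97 ± 0.31), LILRB2 (3.25 ± 0.222), LILRB1 (2.09 ± 0.0688) and LILRB3 (0.53 ± 0.0513). LILRA6 and LILRA5 came last at 0.366 ± 0.0926 and 0.251 ± 0.114 FPKM, and their samples overlapped (SD, n = 3 throughout). In the NFIC shRNA samples the order at the top was exchanged, with LILRA2 at 70.0 ± 4.73 FPKM and LAIR1 at 48.5 ± 0.256. LILRB4 was next at 21.1 ± 0.354 FPKM. Below it LILRB2 and LILRA1 overlapped, as did LILRB3 (1.59 ± 0.213) and LILRA6 (1.26 ± 0.197). Of the summed FPKM of the members, LAIR1 gave 51.3% in the scrambled and 31.4% in the NFIC shRNA samples, and LILRA2 gave 21.5% and 45.3%.

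The sums of the classes moved in opposite directions. The 5 inhibitory members together had 677, 615 and 691 CPM in the controls and 562, 570 and 562 after knockdown. The 4 activating members together had 156, 150 and 158 CPM in the scrambled and 388, 373 and 421 in the NFIC shRNA samples. Per 100 CPM of inhibitory members this gave 23.5 ± 0.826 CPM of activating members with scrambled and 69.8 ± 4.74 with NFIC shRNA (SD, n = 3 each). CPM sums are not scaled by gene length, so this ratio does not compare levels per length. In FPKM the inhibitory sum was 88.3 ± 5.16 with scrambled and 78.9 ± 0.92 with NFIC shRNA. The activating sum was 30.0 ± 0.949 FPKM with scrambled and 75.5 ± 5.01 with NFIC shRNA.

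Both sums rest on single genes. LILRA2 gave 89.0% of the activating CPM in the scrambled and 95.1% in the NFIC shRNA samples, and without it the activating sum lay between 15.4 and 18.2 CPM in the scrambled and between 18.3 and 20.9 CPM in the NFIC shRNA samples. LAIR1 and LILRB4 together gave 96.2% and 93.1% of the inhibitory CPM. Without LAIR1 the inhibitory sum was higher, not lower, with NFIC shRNA, at 170, 175 and 173 CPM against 164, 162 and 167. No test was made on the sums, and with 3 samples against 3 the exact permutation test cannot give a two-sided p below 0.1.

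**Figure D3:**
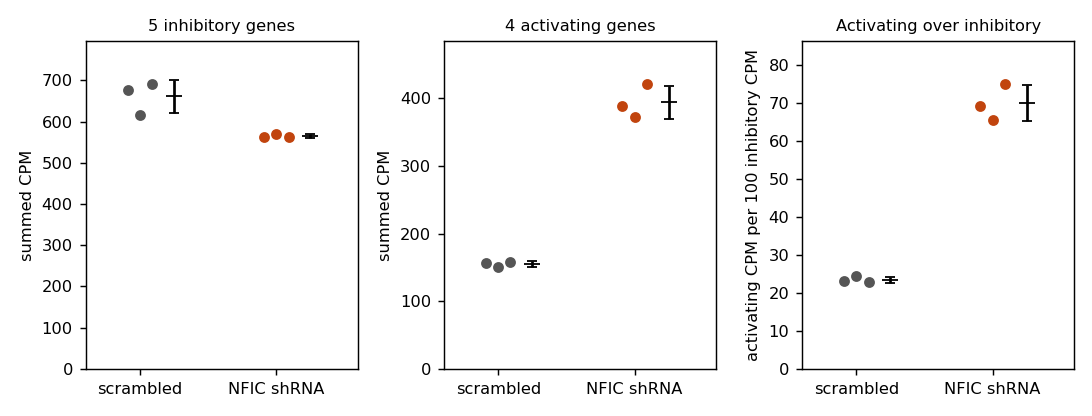
Summed CPM of the 5 inhibitory genes, summed CPM of the 4 activating genes, and activating CPM per 100 inhibitory CPM in each sample, with 1 point per sample, the mean ± SD beside them and vertical axes from 0. The inhibitory sum is lower in all 3 NFIC shRNA samples, the activating sum is higher in all 3, and the ratio rises from 23.5 to 69.8. Sums and ratio are not scaled by gene length.

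All 9 members lie within 454.1 kb of chromosome 19, in the leukocyte receptor complex (GRCh38). LILRB3 (chr19:54216278-54223506), LILRA6 (chr19:54236592-54242791), LILRB2 (chr19:54273812-54281184), LILRA5 (chr19:54307070-54313166) and LAIR1 (chr19:54351384-54370558) are on the minus strand. LILRA2 (chr19:54572920-54590287), LILRA1 (chr19:54593582-54602381), LILRB1 (chr19:54617158-54638022) and LILRB4 (chr19:54643889-54670359) follow on the plus strand. Members that rose were found on both sides of LAIR1. On the plus strand, members called higher and members not called alternated, in the order LILRA2, LILRA1, LILRB1 and LILRB4.

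The genes between and beside the members did not share 1 direction either. Within 150 kb of the stretch 23 other genes were tested, of which 9 were higher and 5 lower, with log2 fold changes from -0.90 to 1.34. Of the 15 tested genes listed as neighbours that are not receptors, 6 were higher and 5 lower. Both counts stand beside the 59.9% of all genes tested that passed. Among these 15 listed genes, TSEN34 (a subunit of the tRNA splicing endonuclease, 0.87), TFPT (0.78) and PPP1R12C (0.56) rose the most on the log2 scale. LENG9 (-0.90), LENG8 (-0.79) and RDH13 (-0.46) fell the most of the 15. PPP1R12C and RDH13 lie farther than 150 kb from the stretch. Within 150 kb the largest rise was that of the pseudogene KIR3DX1 (1.34, from 0.535 to 1.36 CPM). RPS9, a ribosomal protein gene beside LILRB3, also fell (-0.39).

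Counts of the other genes of the family were low. The pseudogene LILRP1 rose (log2 fold change 1.30 ± 0.32 SE, 0.468 to 1.17 CPM, edgeR adjusted p = 2.01e-03), and it shares 100-base stretches with LILRA6 and LILRB3. LAIR2, a secreted relative of LAIR1, did not pass the test (-0.12 ± 0.28 SE, 1.13 and 1.04 CPM). LILRA4, LILRB5 and LILRP2 had too few counts to be tested, and LILRA3 was not among the genes of the table.

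**Figure D4:**
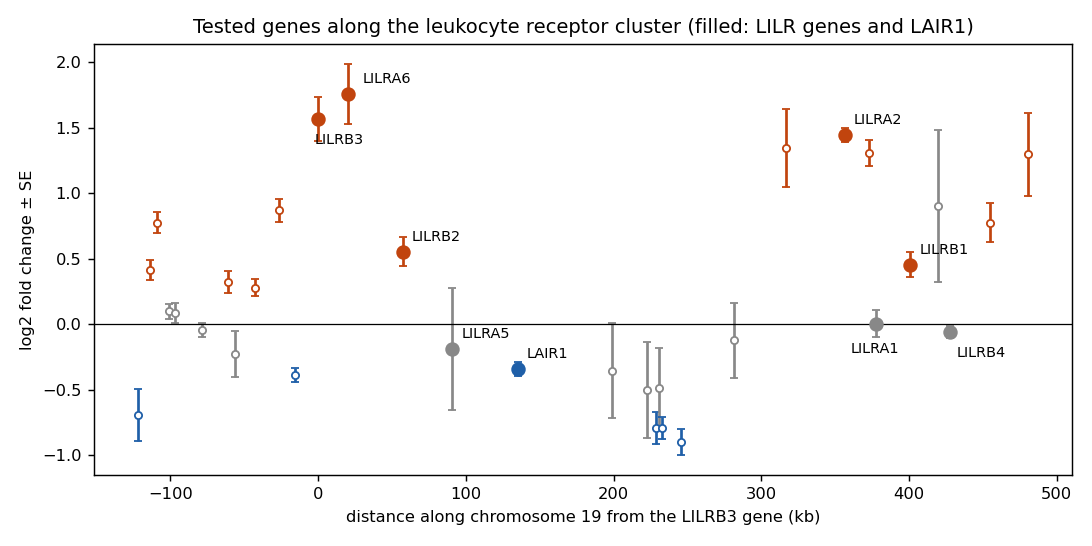
Log2 fold change ± SE of every tested gene in and beside the cluster (vertical axis) against its distance from the LILRB3 gene in kb (horizontal axis). Filled points are the LILR genes and LAIR1, open points are other genes, and red, blue and grey stand for called higher, called lower and not called. LAIR1 and the fallen LENG8 and LENG9 lie between LILRB3 and LILRA2, which rose.

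Overlapping annotation touches 4 members. A long noncoding RNA gene (AC245036.5, ENSG00000269271) covers 15.8% of the exon bases of LILRA2 on the same strand, and its own counts also rose (log2 fold change 1.30, 8.36 to 20.6 CPM). The shared share is 6.45% for LILRB1, with the antisense gene LILRB1-AS1 (2, 2 and 12 against 10, 9 and 11 counts). It is 4.76% for LILRA5, with another noncoding RNA, and 13.0% for LILRB4, with the pseudogene VN1R105P. For LILRA2 and LILRA5 the other gene is on the same strand, so strand cannot separate the reads on the shared bases, and their assignment is uncertain. VN1R105P is also on the same strand as LILRB4 but was not among the genes of the table. For LILRB1 it is on the opposite strand, and whether the counting used strand was not given in the sources used here.

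Of the members, 8 had RefSeq promoter sequences (GRCh38.p14, 250 bases before to 50 after a start), with 15 windows in all and none for LILRA6. TTGGC, the single-arm site of nuclear factor I, read on both strands, was found in 45.6% of all 35116 promoter windows and in 4 of the 15 member windows, those of LAIR1, LILRA1 and LILRB1. Windows of a gene can overlap, and the LILRB1 windows from 54630234 and from 54630267 hold the same TTGGC site. The full palindrome, TTGGC and GCCAA with 5 bases between them, was in 0.0285% of all windows and in no member window. GAGGAA, the core to which PU.1 and other ETS factors bind, was in 27.9% of all windows and in 6 of the 15, those of LAIR1, LILRA5, LILRB1, LILRB3 and LILRB4. Neither TTGGC nor GAGGAA occurred in the windows of LILRA2 or LILRB2. The windows of LILRA2, LILRB3 and LILRB4 lie wholly inside the annotated genes, so the outer starts of these genes were not searched. CCAAT was in 34.6% of all windows and in 2 of the 15, those of LAIR1 and LILRA5. The motif of C/EBP factors, written TTGC, 2 free bases and AA, was in 10.5% of all windows and in 1 of the 15, that of LILRA5. TATAAA was in 11.5% of all windows and in none of the members.

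The neighbours LILRA2 and LILRA1 are alike also ahead of a RefSeq start that lies inside the annotated span of each gene. The windows at these internal starts were 90.8% identical over 273 aligned bases, and the window at the outer start of LILRA1 was not compared. The stretches below (plus strand, RefSeq, GRCh38.p14) are the outer part of these windows, upstream of the internal start. The LILRA2 stretch ends before the first exon of GENCODE release 44 that starts in its window. The LILRA1 stretch is the part aligned with it, and exons of LILRA1 were not looked for there. Both stretches are shown because 1 gene of the pair rose and the other did not pass the test. The likeness is not particular to these neighbours. A window of LILRB2 (chr19:54280579-54280878, minus strand), a member that rose, holds nearly the same bases. Whether the differing bases bear on the changes was not tested. They are chr19:54573605-54573697 for LILRA2 and chr19:54593947-54594039 for LILRA1, are 96.8% identical over 93 bases, and capitals mark the 3 bases that differ.
LILRA2: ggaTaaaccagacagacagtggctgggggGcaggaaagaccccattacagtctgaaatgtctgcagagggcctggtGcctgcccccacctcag
LILRA1: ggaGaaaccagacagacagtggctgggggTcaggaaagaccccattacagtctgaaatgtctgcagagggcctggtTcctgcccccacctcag

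The molecules that act directly behind the receptors were measured next. Of 8 effectors of ITIM receptors, 4 were higher, none was lower and 4 did not pass the test, with a median log2 fold change of 0.21. The phosphatase genes PTPN6, which encodes SHP-1 (0.48 ± 0.064 SE), and INPPL1, which encodes SHIP2 (0.31 ± 0.048), and the adaptor genes DOK1 (0.52 ± 0.069) and DOK3 (0.52 ± 0.061) rose. PTPN11, which encodes SHP-2 (-0.0024 ± 0.047), INPP5D, which encodes SHIP1 (0.10 ± 0.049), CSK (-0.01 ± 0.051) and DOK2 (0.05 ± 0.067) did not pass the test.

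Of 14 genes for ITAM adaptors and their kinases, 8 were higher and 3 lower, with a median log2 fold change of 0.27. FCER1G, which encodes the FcR gamma chain that carries LILRA signals, was 1 of the 8 and went from 129 to 174 CPM (log2 fold change 0.44 ± 0.062 SE, edgeR adjusted p = 1.20e-05). The kinase genes FGR (1.37 ± 0.086), LYN (0.75 ± 0.054) and SYK (0.61 ± 0.047) rose the most. BLNK (-2.65 ± 0.34, from 1.81 to 0.281 CPM), FYN (-0.38 ± 0.088) and CARD9 (-0.26 ± 0.067) fell. Both shares, 4 of 8 and 11 of 14, stand beside the 59.9% of all genes that passed.

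**Figure D5:**
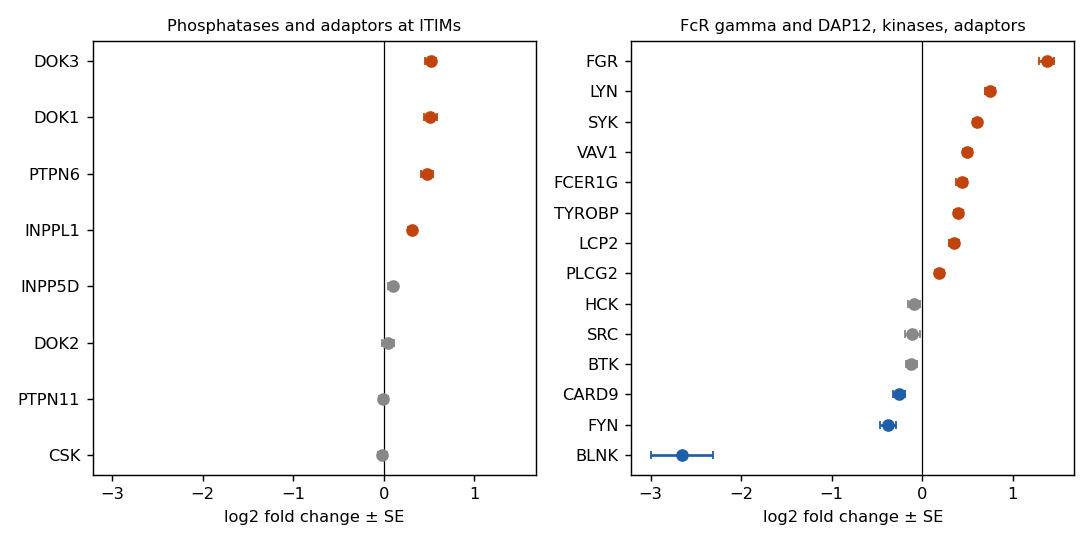
Log2 fold change ± SE of the tested genes that act at ITIMs (left) and of the ITAM adaptors and the kinases and adaptors behind them (right), with red for called higher, blue for called lower and grey for not called. FGR at 1.37 and BLNK at -2.65 are the ends of the range, and none of the ITIM effectors was called lower.

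Genes for ligands of the receptors moved in both directions. Of 27 listed ligand genes 19 were tested, of which 8 were higher and 9 lower. This was 89.5% called, against 59.9% of all genes tested, in a list chosen with earlier results known. Collagens are ligands of LAIR1, and COL1A1 fell from 5.22 to 1.78 CPM (log2 fold change -1.54 ± 0.17 SE). The genes of the LILRB4 ligands fibronectin, FN1 (-1.37 ± 0.096), and apolipoprotein E, APOE (-1.11 ± 0.059, from 247 to 115 CPM), also fell. S100A9, whose product is also a monocyte marker, rose from 531 to 1650 CPM (1.63 ± 0.069). COLEC12, a collectin with a collagen-like part (0.96 ± 0.32), and CD1D, a lipid-presenting relative of HLA class I (0.65 ± 0.068), rose too. Of the 5 tested genes on the route described for LILRB4 in AML, APOE fell as above and NFKB1 fell (-0.36 ± 0.066), RELA (0.33 ± 0.071) and the urokinase receptor gene PLAUR (0.22 ± 0.063) rose, and PTPN11 was the one that did not pass the test.

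For LAIR1 and LILRA2, the most abundant members that fell and rose, the genes with the most similar pattern over the 6 samples were looked up among 15235 genes. Likeness was the root mean square difference of log2 CPM after centring each gene on its own mean. The nearest to LAIR1 were PPP1R11 (0.0219), WDR24 (0.0219) and CYP2R1 (0.0239), with log2 fold changes of -0.32, -0.35 and -0.33. The nearest to LILRA2 were CRK (0.0189), GCH1 (0.0429) and DNAJC25-GNG10 (0.0506), with log2 fold changes of 1.46, 1.45 and 1.43.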

How the data were processed

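Bulk mRNA of 6 THP-1 samples was analysed, 3 with scrambled and 3 with NFIC shRNA. According to the methods, the authors trimmed reads with Trim Galore, checked them with FastQC, mapped them to GRCh38 with STAR and counted them per gene with featureCounts on the Ensembl release 96 annotation, without pooling replicates. Versions of these tools, the strand setting and the treatment of duplicate reads were not given in the sources used here. The authors deposited raw counts per gene, a normalized signal (counts divided by a DESeq2 size factor), and FPKM values, for which that signal was divided by gene length and by 1 constant shared by the samples. The deposited log2 fold changes with their errors, Wald score and p-values are the authors' own comparison and were not used, nor was the normalized signal.

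Raw counts were tested with edgeR 4.0.16 in R 4.3.3 (TMM normalization, filterByExpr, robust quasi-likelihood test, no block), with Benjamini-Hochberg adjustment over 19182 genes and a threshold of 0.05. The standard error is the log2 fold change divided by the square root of F. CPM values use the TMM factors. The labels do not say that replicates were separate cultures. The p-values set the group difference against the spread between these samples. That spread may be technical, so the p-values may not extend to new cultures. Pairing by replicate number was not used in the main test, since the labels do not state it. It was run as an alternative.

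Gene positions and transcripts came from GENCODE release 44 and promoters from RefSeq. The deposited gene length equalled the annotated exon bases for 7 of the 9 members. The membrane segment was the last 19-residue window with a mean hydropathy of at least 1.6. Named are the 9 members, NFIC, every gene of lists with at most 8 tested genes, up to 3 genes in each direction of longer lists, and the 3 nearest patterns to LAIR1 and LILRA2. FCER1G, RPS9, KIR3DX1, CD3D, HBB and the overlapping genes are outside this rule and were named with their values known. Some listed marker genes are not reported here by name. The members, lists and rule were chosen with earlier results of these data known. Alternatives were DESeq2 1.42.0 and its size factors, upper-quartile scaling, limma 3.58.1 (voom), other count filters, an adjusted p of 0.01, leaving out each sample and a replicate block.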

Additional observations from a re-analysis of the deposited data

How the results depend on the processing

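LILRA2, LILRA6, LILRB1, LILRB2 and LILRB3 were called higher and LAIR1 lower under each of the 15 alternatives run, among them DESeq2, limma-voom and an adjusted p under 0.01, while the number of genes called lay between 9307 and 12099. With upper-quartile scaling 2 members were called lower, LAIR1 and LILRB4. LILRA1, which was not called, changed sign to -0.053 with upper-quartile scaling, -0.0092 with at least 10 counts in every sample and -0.00082 with a replicate block, and lay between -0.096 and 0.090 when each sample was left out in turn. LILRA5 lay between -0.55 and 0.16 when each sample was left out, with the change of sign without scrambled replicate 3, and gave no value with at least 10 counts in every sample. The cause was not tested. The fit without a replicate block called 11486 genes. The replicate block on the label numbers, whose pairs had correlated deviations of 0.0563, -0.0862 and -0.0446, called 10983. A block on the sample names, which joins C1 with N1, C3 with N3 and, as the pair left over, C4 with N2 (0.0563, 0.145 and 0.0267), called 12099. Neither changed a call of a member. Depth limits LILRA5, LILRA6 and LILRB3, of which LILRA5 had at most 14 counts in a sample.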

Other observations

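Receptors outside the family that use the same motifs also moved in both directions. Of 16 tested receptors of myeloid cells with ITIMs, 5 were higher and 5 lower (62.5% called, against 59.9% of all genes tested). SIGLEC10 (log2 fold change -1.14 ± 0.15 SE), CD33 (-0.97 ± 0.078) and MILR1 (-0.88 ± 0.084) fell, and SIGLEC9 (1.55 ± 0.39, from 0.369 to 1.10 CPM), PECAM1 (0.64 ± 0.058) and SIGLEC5 (0.47 ± 0.15) rose. Of 11 tested receptors that couple to ITAMs, 6 were higher and 1 lower (63.6% called, near the same share of all genes). TREM2, a lipid-sensing receptor of macrophages, was the one that fell (-1.47 ± 0.10, to 7.25 CPM), and CLEC7A (1.31 ± 0.32), CLEC5A (1.21 ± 0.30) and SIGLEC14 (0.91 ± 0.12) rose the most.

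Within the leukocyte receptor complex, 3 of 12 other listed receptors were tested and all 3 passed, against 59.9% of all genes tested. FCAR, the Fc receptor for IgA, rose from 10.5 to 24.4 CPM (1.22 ± 0.096), and OSCAR, which like LAIR1 binds collagens, fell from 32.3 CPM (-0.69 ± 0.20). VSTM1 was at 0.0135 CPM on average in the scrambled samples, under the floor of 3 counts, and at 0.540 CPM in the NFIC shRNA samples. Among the tested markers of monocytes and macrophages, S100A9, ITGAM (0.99 ± 0.071) and MARCO (0.92 ± 0.17) rose the most, and CD68 (-1.01 ± 0.055), CD33 and CD4 (-0.71 ± 0.054) fell the most. Among markers of other cell types, ITGA2B (-1.83 ± 0.16), COL1A1, NKG7 (-1.37 ± 0.17) and CD79A (-0.86 ± 0.22) fell, all from under 10 CPM, PECAM1 rose, and NCAM1 (-0.14 ± 0.19) did not pass the test.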
